A study of Mus musculus with 12 samples.

Results

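The genes described here encode 10 membrane proteins of liver cells. They carry bile acids and other organic anions into and out of these cells or, in the case of Abcb4, phospholipid into bile. Slc10a1, Slco1a1, Slco1a4, Slco1b2 and Slco2b1 are on the uptake side. Abcb11, Abcb4 and Abcc2 are on the canalicular export side, and Abcc3 and Abcc4 on the basolateral export side. All were picked by gene name, without use of their levels, and they are 10 of the 26506 genes tested on 12 single-colour Agilent arrays of mouse tissue. All 10 were on the array, and the probe of each was well above background on all 12 arrays, so the filter on dim probes removed none. The 4 groups, with 3 arrays each, were survivin-deleted hepatocellular carcinoma (HCC) and wild-type HCC, survivin-deleted non-cancerous liver and wild-type non-cancerous liver, called liver below. Deleted tissue carried the Cre recombinase (Mxcre+) and wild-type tissue did not (Mxcre-). All mice were male and of the 129/SV/B6 strain, and in both genotypes they had received the liver carcinogen N-nitrosodiethylamine at 50 mg/kg when 2 weeks old. About 8 months later both genotypes were given poly(IC), and tissue was taken 1 week after it, which was 2 months after irradiation and a bone marrow transplant. Mx-Cre is driven by an interferon-responsive promoter and can act in blood-forming cells as well as hepatocytes. Deletion thus need not be limited to liver cells, but whether blood-forming cells carried it after the transplant is not known. The labels give neither the survivin alleles nor the source of the marrow. Nor do they tie arrays to animals, within a group or between HCC and liver, so the p-values below measure only the spread between these samples, which may be technical.

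Hepatocytes take bile acids up from sinusoidal blood and secrete them across the canalicular membrane into bile. Slc10a1 encodes NTCP, the sodium-dependent importer of conjugated bile acids, and the Slco genes encode sodium-independent organic anion transporters of the OATP family. Abcb11 encodes BSEP, the canalicular bile salt pump, Abcb4 the phospholipid floppase that supplies bile with phosphatidylcholine, and Abcc2 the canalicular pump MRP2 for conjugated bilirubin and glutathione conjugates. Abcc3 and Abcc4 encode MRP3 and MRP4, which export conjugates back across the basolateral membrane into blood. In cholestasis, uptake genes are known to be turned down and basolateral exporters turned up, largely through the nuclear receptors FXR and SHP and, for the exporters, CAR and the oxidative stress factor NRF2.

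The 4 arrays numbered 1 shared a slide (slide 1), and those numbered 2 and 3 shared another (slide 2). The 75th percentile of the signal was 1131 to 1766 on the 4 arrays of slide 1 and 3344 to 3906 on the 8 arrays of slide 2. The first wild-type liver array had 49.0% of its spots well above background and the others 69.2% to 83.4%. Levels below are log2 signals relative to the 75th percentile of the same array, and each difference was fitted with slide as a block. Birc5, which encodes survivin, read 0.06, 0.17 and -0.08 in survivin-deleted HCC, against 0.80, 0.82 and 1.76 in wild-type HCC. In liver it read 2.42, -0.10 and -1.07 with deletion, against 2.85, 0.51 and 0.76 in wild type. The array labelled survivin-deleted liver replicate 1, at 2.42, stood above the wild-type livers at 0.51 and 0.76, which lie on the other slide described above. Within its own slide it was below the wild-type liver at 2.85. If deletion lowers Birc5 RNA, whether this array goes against its label thus depends on the slide it is compared with. These levels are from the brightest Birc5 probe. A dimmer Birc5 probe also parted the HCC groups, with -2.93 to -2.56 with deletion and -2.03 to 0.09 in wild type. On another dimmer probe the HCC groups overlapped. There wild-type HCC replicate 1 read -0.57, below survivin-deleted HCC replicate 1 at -0.24 on the same slide. On that probe wild-type HCC replicate 1 went against its label, if deletion lowers Birc5 RNA. The deposited value table holds the signals of survivin-deleted liver replicate 1 and wild-type HCC replicate 1 under each other's names. For this reason many differences are also given with these 2 arrays exchanged or with both left out, and those given only as labelled carry this doubt. The summed level of 10 hepatocyte markers, among them Alb and Ttr, was 492 to 569 times the 75th percentile in survivin-deleted HCC, 539 to 571 in wild-type HCC, 446 to 527 in survivin-deleted liver and 543 to 608 in wild-type liver. Each of these markers was above background on all 12 arrays. In tissue RNA, fewer cells of a type and less RNA per cell cannot be told apart.

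Slc10a1 had 2 probes, and the sequences show why the dimmer one was used. The gene-specific probe lies on mm9 chr12:82061470-82061529, minus strand, at base 598 of the transcript, and the RefSeq transcripts it lists belong to Slc10a1 alone. The brighter probe, on mm9 chr12:82056539-82056598, lists transcripts of 4 genes, namely 4930402H24Rik, Med16, Slc10a1 and Spc24. It shares runs of at least 20 bases with probes of 3 other genes, and the run printed in capitals below, taken from it, also occurs in 2 of 32851 RefSeq promoters. Its signal cannot be assigned to Slc10a1, and it was set aside after its sequence had been read. The full gene-specific probe and this run are as follows. The label of the run refers to those 2 promoters, since sharing with probes of 3 other genes was counted over all runs of the brighter probe.
Slc10a1 gene-specific probe: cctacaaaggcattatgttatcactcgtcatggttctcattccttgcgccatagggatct
Run shared with other genes: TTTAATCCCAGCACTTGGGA

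The shared probe read 6.62, 5.98 and 6.11 in survivin-deleted liver, against 7.02, 6.33 and 6.42 in wild-type liver. The groups overlapped on this probe over both slides, but within each slide the deleted arrays were the lower ones. The difference on it was -0.35 (SE 0.21) in liver and -0.21 (SE 0.21) in HCC, against -0.69 (SE 0.33) and -0.75 (SE 0.33) on the gene-specific probe. None of the other members' probes that were used shared a run of 20 bases with a probe of another gene, and the longest run shared by probes of different members was 8 bases.

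**Figure D1:**
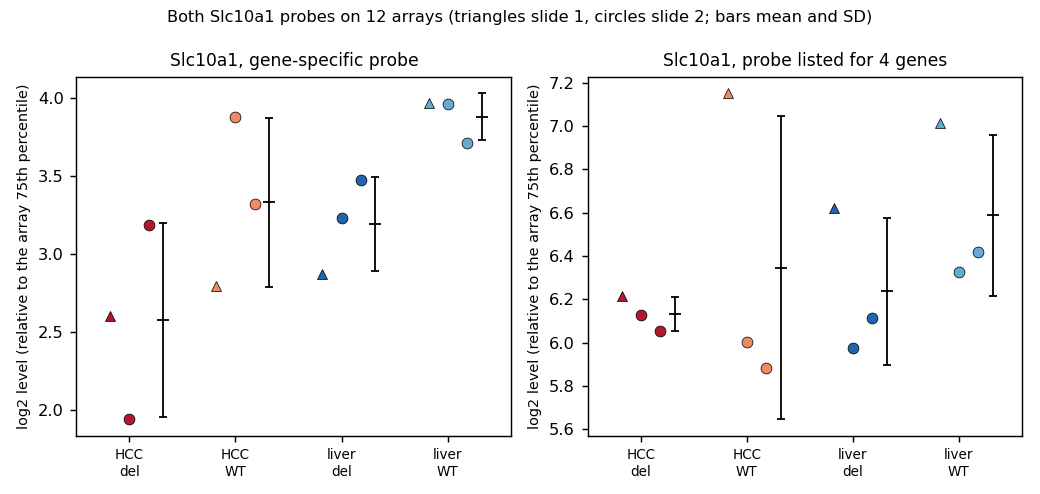
Level of Slc10a1 on its gene-specific probe (left) and on the probe listed for 4 genes (right), as log2 signal relative to the 75th percentile of the array, on 12 arrays. HCC and liver are shown with survivin deleted (del) and wild type (WT), triangles are slide 1, circles slide 2, and bars give the mean and SD of 3 arrays. On the left the 3 survivin-deleted livers (2.87 to 3.47) lie below the 3 wild-type livers (3.71 to 3.97), while on the right the groups overlap between slides but not within a slide.

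HCC was first compared with liver over both genotypes. All 10 transporters were lower in HCC than in liver, by a median of -0.45 on the log2 scale, while over all genes tested the median was 0.01 and 47.7% were lower. None of the 10 passed an adjusted p of 0.05 by limma, where 0% of all genes did. At an unadjusted p under 0.05, 3 of the 10 were lower and 0 higher, where 3.95% of all genes were lower and 3.33% higher. The 3 were Abcc2, Slc10a1 and Slco1b2. This count was 0 without the slide block and 5 with the arrays in doubt exchanged. That exchange also raised the counts over all 26506 genes, to 1864 lower and 1713 higher, from 1046 and 882 as labelled. Leaving out 1 array at a time, the count of members was 1 (without wild-type liver replicate 1 or wild-type HCC replicate 3) to 5 (without the array labelled survivin-deleted liver replicate 1). The 5 uptake genes had a median of -0.58 and the 5 export genes a median of -0.41.

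Abcc2, the canalicular conjugate pump, read 1.73, 1.34 and 1.32 in survivin-deleted HCC and 2.06, 1.57 and 0.90 in wild-type HCC, against 2.39, 1.42 and 1.62 in survivin-deleted liver and 2.66, 1.79 and 1.78 in wild-type liver. Within each slide the HCC arrays sat lower on average, by -0.63 on slide 1 and -0.37 on slide 2, although the ranges of the 2 tissues overlapped. The fitted difference was -0.46 (95% interval -0.78 to -0.14, limma unadjusted p = 0.00996, adjusted p = 0.631). Slco1b2, the liver OATP of the mouse that takes up bile acids and many drugs, read 3.31, 3.77 and 3.31 in survivin-deleted HCC and 3.43, 2.99 and 2.92 in wild-type HCC, against 3.53, 3.97 and 3.53 in survivin-deleted liver and 4.06, 3.83 and 3.43 in wild-type liver. Its 2 lowest arrays of 12 were wild-type HCC replicates 2 and 3. The difference was -0.44 (95% interval -0.82 to -0.06, unadjusted p = 0.0283), with -0.43 on slide 1 and -0.44 on slide 2. Slc10a1 differed by -0.58 (95% interval -1.11 to -0.05, unadjusted p = 0.0341), with -0.72 on slide 1 and -0.51 on slide 2. With both arrays in doubt left out these differences were -0.45 for Abcc2, -0.55 for Slco1b2 and -0.53 for Slc10a1, with unadjusted p of 0.0266, 0.0178 and 0.0747. All 10 members stayed lower with the 2 arrays exchanged and with both left out. When 1 array at a time was left out, the unadjusted p reached 0.0259 for Abcc2, 0.0743 for Slco1b2 and 0.0940 for Slc10a1, and the Slc10a1 difference was -0.39 without survivin-deleted HCC replicate 2.

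The other members were lower in HCC by -0.99 (Slco1a1), -0.92 (Abcc4), -0.79 (Slco2b1), -0.41 (Abcc3), -0.37 (Slco1a4), -0.29 (Abcb4) and -0.15 (Abcb11), each with a 95% interval that included 0. With the arrays in doubt exchanged the Abcc4 difference was -0.13 and that of Slco1a1 -1.71 (unadjusted p = 0.0297), and Slco1a1 was at -0.43 without survivin-deleted HCC replicate 2. Abcb11, the bile salt pump, had a narrow one, -0.46 to 0.15. The difference of Slco1a1, an OATP known to be higher in male than in female mouse liver, was 1.11 on slide 1 and -2.05 on slide 2 as labelled. That of Slco2b1 was 0.24 on slide 1 and -1.31 on slide 2. Both arrays in doubt lie on slide 1, where Slco1a1 read 1.49 as wild-type HCC and -0.65 as survivin-deleted liver. Slide and label doubt therefore cannot be told apart in these slide 1 values. With both arrays in doubt left out, Slco2b1 was -1.27 (unadjusted p = 0.00794) and Abcc3 -0.62 (unadjusted p = 0.0348).

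The tissues were then compared within each genotype. In wild-type mice all 10 members were lower in HCC, with 44.6% of all genes lower, and 3 of 10 at an unadjusted p under 0.05, where 2.43% of all genes were. These were Abcc2 (-0.57, SE 0.20), Slco1b2 (-0.66, SE 0.24) and Abcc4 (-1.68, SE 0.67). The Abcc4 value was -0.95 without wild-type liver replicate 3 and -0.89 with the arrays in doubt exchanged, and that of Abcc2 was -0.37 without wild-type HCC replicate 3. In survivin-deleted mice all 10 were again lower, by a median of -0.30, with 55.8% of all genes lower, and 0 of 10 reached an unadjusted p under 0.05, where 4.38% of all genes did. No member passed the adjusted test in either genotype by limma. For no member did the test of the difference between these tissue effects, which is the interaction of tissue and deletion, reach an unadjusted p under 0.05, where 3.28% of all genes did. The largest such difference was that of Abcc4, 1.52 (95% interval -0.61 to 3.65, unadjusted p = 0.143).

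**Figure D2:**
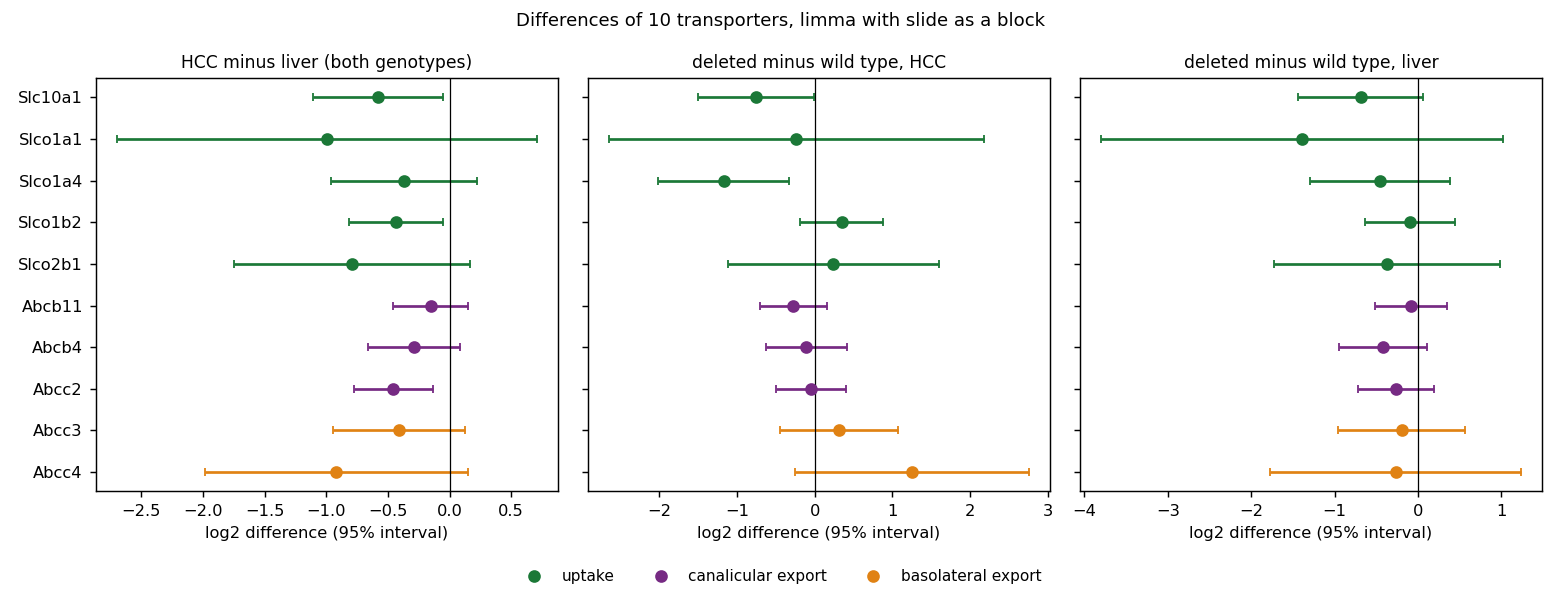
Log2 differences of the 10 transporters for HCC minus liver over both genotypes (left), survivin-deleted minus wild type in HCC (middle) and in liver (right), with 95% intervals from limma with slide as a block. Colours mark uptake, canalicular and basolateral export genes. All 10 points lie below 0 on the left and on the right, and 6 of 10 do so in the middle, where the interval of Slco1a4 (-2.01 to -0.33) lies farthest from 0.

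Survivin deletion was next examined in each tissue. With arrays as labelled, the uptake genes Slco1a4, Slc10a1 and Slco1a1 were lower with deletion in both tissues, and all 5 uptake genes were lower in liver. In HCC 6 members were lower and 4 higher, and in liver 10 were lower, where 52.6% and 44.9% of all genes were lower. No member passed the adjusted test by limma in HCC or liver, where 0% of all genes did. At an unadjusted p under 0.05, 2 members were lower in HCC, where 4.45% of all genes were, and 0 in liver, where 3.46% were. With the arrays in doubt exchanged, 5 members were lower in HCC and 8 in liver, and with both left out 4 and 6, so the signs of the small differences rest on those arrays. Beside the lower transporters in liver, markers of other cell types were also lower with deletion, namely 9 of 9 of Kupffer cells and macrophages (median -0.26), 7 of 7 of endothelial cells (-0.22), 7 of 8 of stellate cells and fibroblasts (-0.32), 5 of 5 of erythroid cells (-0.73) and 5 of 5 of platelets and megakaryocytes (-0.86). The summed level of the last was 2.04 to 2.85 times the 75th percentile in survivin-deleted liver, against 2.66 to 6.63 in wild-type liver. Not all types went this way: 7 of 8 T and NK cell markers (median 0.25) and 5 of 8 cholangiocyte markers (0.39) were higher. With the arrays in doubt exchanged, 7 of 9 Kupffer cell and macrophage markers were lower and 3 of 8 T and NK cell markers higher. The part of any of these cells in the liver differences was not tested.

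Slco1a4, an OATP that transports bile acids and digoxin and is known to be higher in female than in male mouse liver, read 0.37, -0.03 and 1.12 in survivin-deleted HCC, against 1.29, 2.32 and 1.37 in wild-type HCC. In liver it read 1.27, 1.16 and 1.20 with deletion, against 2.23, 1.36 and 1.42 in wild type. All 3 deleted arrays were below all 3 wild-type arrays in each tissue. The groups were parted in this way, lower with deletion, in 1 of 10 members in HCC (2.77% of all genes), in 2 of 10 in liver (3.25% of all genes) and in 1 of 10 in both (0.619% of all genes). Within each slide taken alone, the groups were parted in 2 of 10 members in HCC, Slco1a4 and Slc10a1 (13.2% of all genes), and in 3 of 10 in liver, the same pair and Abcc2 (13.4% of all genes). In HCC Slco1a4 was 2.25-fold lower, a log2 difference of -1.17 (SE 0.38, 95% interval -2.01 to -0.33, limma unadjusted p = 0.0114, adjusted p = 0.58), with -0.92 on slide 1 and -1.29 on slide 2. In liver the difference was -0.46 (SE 0.38, 95% interval -1.30 to 0.38, unadjusted p = 0.249), with -0.96 on slide 1 and -0.21 on slide 2. Without wild-type HCC replicate 2 the HCC difference was -0.81, with an unadjusted p of 0.0527, and without wild-type liver replicate 1 the liver difference was -0.11. The 2 effects differed by -0.71 (95% interval -1.90 to 0.48). The Slco1a4 groups were parted in both tissues with the arrays in doubt exchanged, as 2.75% of all genes were in HCC and 3.12% in liver. They were also parted with both left out, where 10.4% were in HCC and 14.8% in liver. The differences were then -1.16 and -1.46 in HCC and -0.45 and -0.38 in liver.

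Slc10a1 read 2.60, 1.94 and 3.19 in survivin-deleted HCC, against 2.79, 3.88 and 3.32 in wild-type HCC, so that the groups overlapped in 1 pair of arrays from different slides. In liver it read 2.87, 3.23 and 3.47 with deletion, against 3.97, 3.96 and 3.71 in wild type, with no overlap. The difference was -0.75 in HCC (95% interval -1.50 to -0.01, limma unadjusted p = 0.0483, or 0.0589 with replicate number as the block, adjusted p = 0.628) and -0.69 in liver (95% interval -1.44 to 0.06, unadjusted p = 0.0673). In HCC it was -0.19 on slide 1 and -1.04 on slide 2, and in liver -1.10 and -0.48. With both arrays in doubt left out, which leaves fewer arrays to overlap, the HCC groups were parted, and the differences were -1.05 in HCC and -0.50 in liver. Without survivin-deleted HCC replicate 2, the lowest array, the HCC difference was -0.37. In liver, 8 of 10 hepatocyte markers were also lower with deletion, by a median of -0.27, and 2 of them at an unadjusted p under 0.05. Of all genes 44.9% were lower in liver, and 3.46% were lower at that p. The part of these markers in the Slc10a1 and Slco1a4 differences was not tested.

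Over both tissues together, a comparison added after these values were seen, Slco1a4 was -0.81 (SE 0.27, unadjusted p = 0.0122) and Slc10a1 -0.72 (SE 0.24, unadjusted p = 0.0126), with an adjusted p of 0.255 for both. These were the 2 members of 10 at an unadjusted p under 0.05 and lower, where 7.29% of all genes were. Leaving out any 1 array kept Slco1a4 between -0.99 and -0.63 and Slc10a1 between -0.86 and -0.53.

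**Figure D3:**
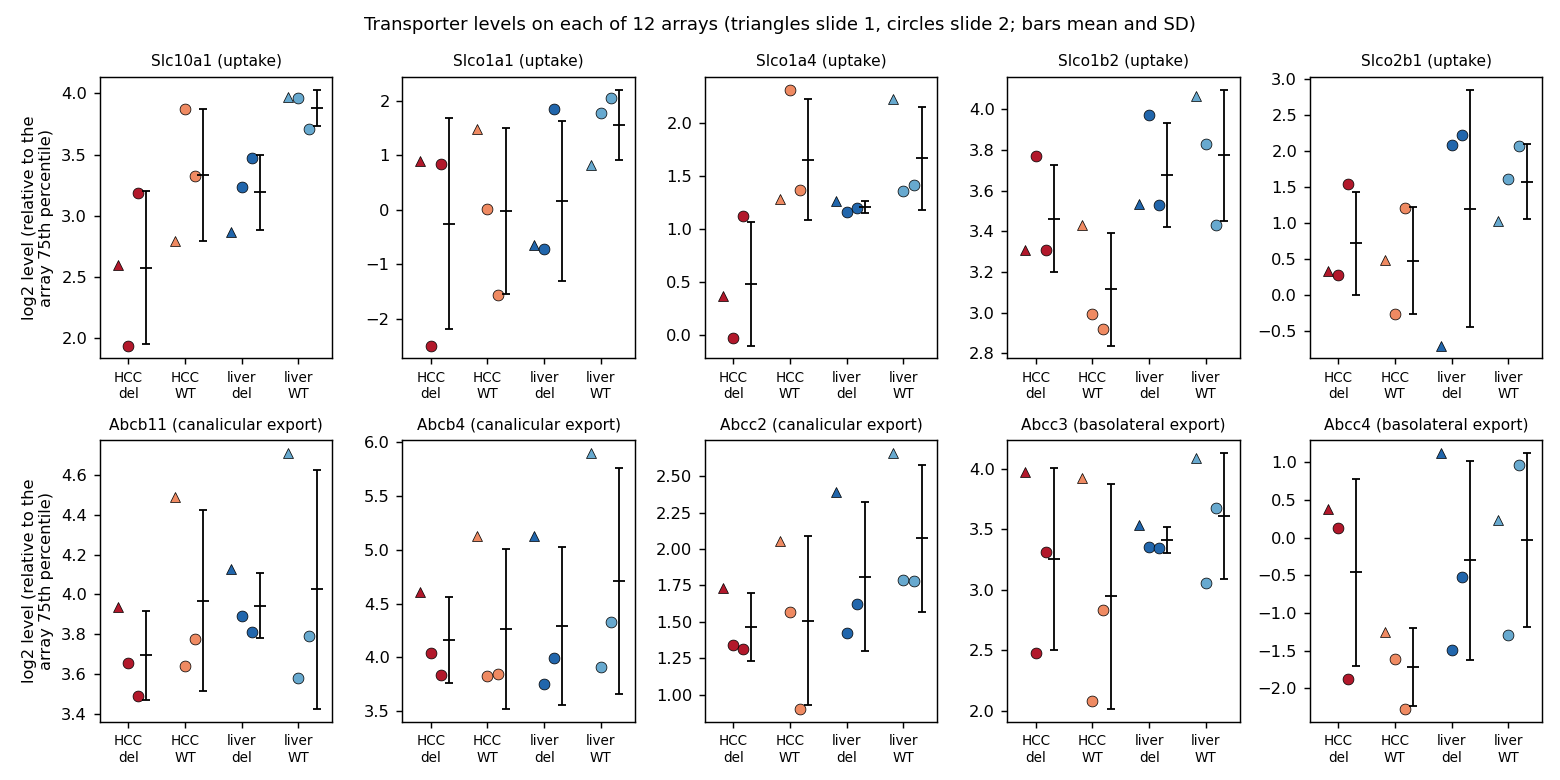
Level of each transporter on the 12 arrays, as log2 signal relative to the 75th percentile of the array, in HCC and liver with survivin deleted (del) and wild type (WT). Triangles are slide 1, circles slide 2, and bars give the mean and SD of 3 arrays. The 3 deleted arrays of Slco1a4 lie below the 3 wild-type arrays in both tissues, and Abcb11, Abcb4 and Abcc2 are highest on slide 1 in each group.

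The other uptake genes had 95% intervals that included 0 in both tissues. Slco1b2 was 0.35 higher with deletion in HCC (95% interval -0.19 to 0.89) and differed by -0.10 in liver (95% interval -0.63 to 0.44). Slco1a1 read 0.90, -2.49 and 0.84 in survivin-deleted HCC, against 1.49, 0.01 and -1.55 in wild-type HCC. In liver it read -0.65, -0.71 and 1.85 with deletion, against 0.83, 1.79 and 2.06 in wild type. It had a wide spread in every group but wild-type liver, and the differences, -0.24 in HCC and -1.39 in liver, had intervals of -2.65 to 2.18 and -3.80 to 1.02. Without survivin-deleted HCC replicate 2 its HCC difference was 0.88, and with the arrays in doubt exchanged it was 0.48. In liver the Slco1a1 difference was -0.68 with the arrays exchanged and -0.66 without the first array labelled survivin-deleted. Slco2b1, an OATP of hepatocytes and other tissues, differed by 0.24 in HCC and -0.37 in liver, and the array labelled survivin-deleted liver replicate 1 stood at -0.71, against 2.08 and 2.22 on the other 2 arrays of its group. Without that array the Slco2b1 difference in liver was 0.43.

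The canalicular exporters had intervals that included 0 with deletion in both tissues. Abcb11 read 3.94, 3.65 and 3.49 in survivin-deleted HCC, against 4.49, 3.64 and 3.78 in wild-type HCC, and 4.13, 3.89 and 3.81 in survivin-deleted liver, against 4.71, 3.58 and 3.79 in wild-type liver. Each group had its highest array on slide 1. The differences were -0.27 in HCC (95% interval -0.71 to 0.16) and -0.08 in liver (95% interval -0.52 to 0.35). Abcb4 differed by -0.10 in HCC (95% interval -0.63 to 0.42) and by -0.42 in liver (95% interval -0.94 to 0.11), and Abcc2 by -0.05 (95% interval -0.50 to 0.41) and -0.26 (95% interval -0.72 to 0.19). A second Abcb4 probe gave differences of -0.09 in HCC and -0.33 in liver.

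Of the basolateral exporters, Abcc4 had the highest difference of the 10 members with deletion in HCC as labelled, but not with the arrays in doubt exchanged, where Slco2b1 (0.64) and Slco1a1 (0.48) stood above it. It read 0.38, 0.13 and -1.88 in survivin-deleted HCC, against -1.25, -1.61 and -2.27 in wild-type HCC, where the third deleted array lay among the wild-type ones. The difference was 1.25 (95% interval -0.26 to 2.76, unadjusted p = 0.0939, adjusted p = 0.674). In liver it read 1.12, -1.50 and -0.52 with deletion, against 0.24, -1.30 and 0.96 in wild type, a difference of -0.27 (95% interval -1.78 to 1.24). With those arrays exchanged the Abcc4 difference in HCC was 0.46, and with both left out 1.20. It was 0.74 without survivin-deleted HCC replicate 2. Abcc3 read 3.98, 2.48 and 3.31 in survivin-deleted HCC and 3.92, 2.08 and 2.83 in wild-type HCC, against 3.53, 3.35 and 3.34 in survivin-deleted liver and 4.09, 3.06 and 3.68 in wild-type liver. The Abcc3 differences with deletion were 0.31 in HCC and -0.20 in liver, both with intervals that included 0.

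Uptake and export genes were set against each other on each array, after the slide mean of every gene was subtracted. The mean of the uptake genes minus that of the export genes was -0.05, -1.33 and 0.29 in survivin-deleted HCC, against 0.40, 0.19 and -0.06 in wild-type HCC. It was -0.63, 0.07 and 0.31 in survivin-deleted liver, against 0.28, 0.61 and -0.07 in wild-type liver. The groups overlapped in both tissues, and the lowest value, -1.33 on survivin-deleted HCC replicate 2, came from the array on which Slc10a1, Slco1a1 and Slco1a4 were each at their lowest of 12. By fitted differences, the median of the uptake genes minus that of the export genes was -0.17 for HCC against liver, -0.19 for deletion in HCC and -0.20 for deletion in liver. Without the array labelled wild-type HCC replicate 1 the value for deletion in HCC was 0.52, and without survivin-deleted HCC replicate 1 it was -0.97, so no direction of uptake against export was settled by these arrays.

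The members that resembled each other most over the 12 arrays, after slide means were removed, were the importer Slco2b1 and the exporter Abcc3 (r = 0.941). The importers Slc10a1 and Slco1a4 (r = 0.890) and the canalicular exporters Abcb11 and Abcb4 (r = 0.721) came next. These are descriptions over 12 arrays that share slides and possibly animals. The 3 genes most like Abcc4 were Nqo1 (r = 0.886), Gsta1 (r = 0.872) and Blvrb (r = 0.866). Nqo1, a quinone reductase and a classical NRF2 target, read 0.20, -0.08 and -0.67 in survivin-deleted HCC, against -0.33, -1.37 and -1.71 in wild-type HCC. In liver it read 0.77, -0.63 and -0.20 with deletion, against 0.77, -0.57 and 1.83 in wild type. Both genes had their lowest levels in wild-type HCC, and on slide 2 their highest in wild-type liver replicate 3. The 3 genes most like Slco1a1 were Ugt2b1 (r = 0.946), Acsm5 (r = 0.910) and Keg1 (r = 0.898). Ugt2b1, a glucuronosyltransferase, read 2.81, -0.48 and 2.86 in survivin-deleted HCC, and -0.48 was its lowest of 12 arrays, as -2.49 was for Slco1a1. Timd4, a surface receptor of resident Kupffer cells, was among the 3 nearest genes of both Slco2b1 (r = 0.956) and Abcc3 (r = 0.936). In wild-type mice 9 of 9 Kupffer cell and macrophage markers were lower in HCC than in liver, by a median of -0.59, beside -1.10 for Slco2b1 and -0.66 for Abcc3. In survivin-deleted mice 5 of 9 were higher in HCC, with a median of 0.08, beside -0.48 for Slco2b1 and -0.15 for Abcc3. The summed level of these 9 was 22.4 to 69.5 times the 75th percentile in wild-type HCC, against 42.4 to 96.4 in wild-type liver. Clec4f, Timd4 and 6 others of the 9 were above background on all 12 arrays, and their part in the levels of Slco2b1 and Abcc3 was not tested.

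**Figure D4:**
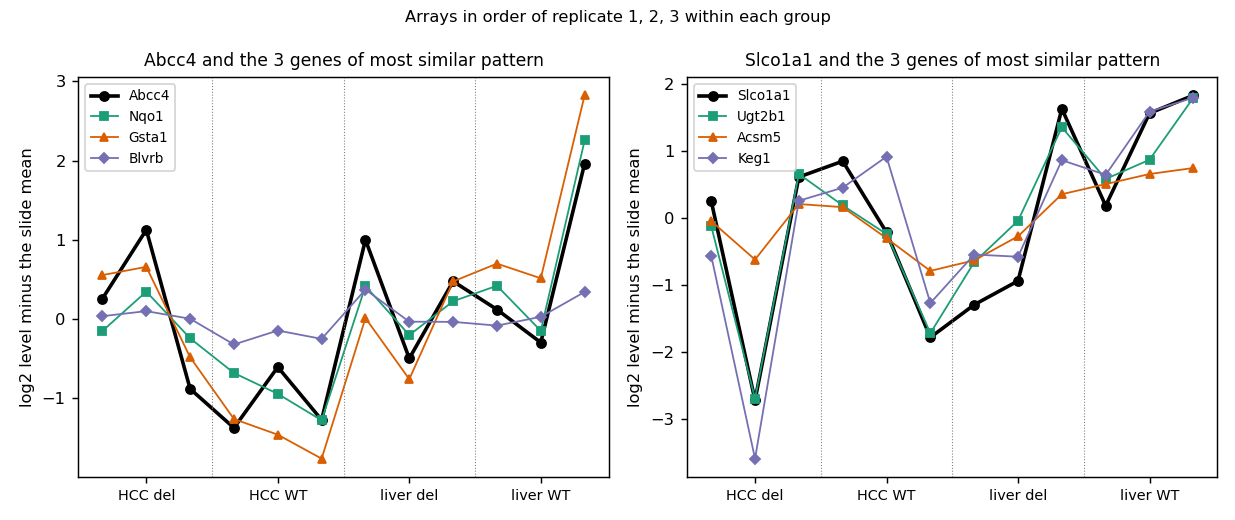
Log2 level minus the slide mean on the 12 arrays, ordered by group (HCC and liver, survivin deleted, del, and wild type, WT) and within a group by replicate number, for Abcc4 with Nqo1, Gsta1 and Blvrb (left) and for Slco1a1 with Ugt2b1, Acsm5 and Keg1 (right). Abcc4 and its 3 companions are low on the wild-type HCC arrays, and Slco1a1, Ugt2b1 and Keg1 drop together on survivin-deleted HCC replicate 2.

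Promoters of 3 members are shown because of these patterns, from RefSeq on GRCm38.p6, 250 bases before to 50 after the start. Slc10a1 and Slco1a4 form the pair that was lower with deletion, and Abcc4 had NRF2 targets nearest to it. The letters TTCNNNGAA, a STAT5 site, were searched on both strands because Stat5 activates the Slc10a1 promoter in rat, and 8.3% of 32851 promoters of this length hold them. The letters TGACNNNGC, an antioxidant response element that NRF2 binds, were searched on both strands too, and 12.4% of the promoters hold them. Capitals mark the matches, which are descriptions of the letters and not of binding. The Slc10a1 window (chr12:80968656-80968955, minus strand) and the Abcc4 window (chr14:118706170-118706469, minus strand) hold 1 match each, of the STAT5 site and of the antioxidant response element in this order. The Slco1a4 window (chr6:141856171-141856470, minus strand) holds 0 matches of the STAT5 site. A second Slc10a1 window (chr12:80968030-80968329) holds 0 of the STAT5 site and a second Abcc4 window (chr14:118676882-118677181) holds 1 of the antioxidant response element, while the windows of Nqo1, Gsta1 and Blvrb hold 0.
Slc10a1 promoter: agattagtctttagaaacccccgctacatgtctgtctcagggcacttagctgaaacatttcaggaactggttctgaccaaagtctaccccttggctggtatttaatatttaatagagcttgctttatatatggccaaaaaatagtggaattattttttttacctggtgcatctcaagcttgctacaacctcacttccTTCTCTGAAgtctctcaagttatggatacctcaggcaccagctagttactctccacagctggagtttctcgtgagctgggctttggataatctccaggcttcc
Slco1a4 promoter: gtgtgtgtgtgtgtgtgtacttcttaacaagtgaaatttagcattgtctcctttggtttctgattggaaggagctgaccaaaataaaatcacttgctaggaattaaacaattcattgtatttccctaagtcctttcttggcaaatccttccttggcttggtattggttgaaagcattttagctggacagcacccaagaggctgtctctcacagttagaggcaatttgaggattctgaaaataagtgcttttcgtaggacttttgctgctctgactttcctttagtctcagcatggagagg
Abcc4 promoter: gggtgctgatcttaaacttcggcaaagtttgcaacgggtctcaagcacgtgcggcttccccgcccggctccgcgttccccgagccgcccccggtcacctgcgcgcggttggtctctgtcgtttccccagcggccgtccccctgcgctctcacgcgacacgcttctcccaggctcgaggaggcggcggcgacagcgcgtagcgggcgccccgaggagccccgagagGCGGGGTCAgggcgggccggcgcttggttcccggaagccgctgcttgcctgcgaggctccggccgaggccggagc

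Genes that act with these transporters were read from gene lists, and none of them passed the adjusted test by limma. Of 26 measured genes of other bile acid and sterol transport, 15 were lower and 11 higher in HCC than in liver, with a median of -0.01. Slc10a2, the sodium-dependent bile acid importer of ileum and bile ducts, was 0.72 higher in HCC (SE 0.18, unadjusted p = 0.00227), with 2.28 to 3.00 in survivin-deleted HCC and 2.45 to 2.91 in wild-type HCC, against 1.39 to 2.37 in survivin-deleted liver and 1.77 to 2.28 in wild-type liver. With the arrays in doubt exchanged the Slc10a2 difference was 0.54 (unadjusted p = 0.0466). Of 8 cholangiocyte markers 6 were higher in HCC, 2 of them at an unadjusted p under 0.05, where 3.33% of all genes were. The part of these markers in the Slc10a2 difference was not tested. With deletion in liver, Ostb (Slc51b), a subunit of the basolateral bile acid exporter, differed by -1.02 (unadjusted p = 0.0436). Ezr, which anchors membrane proteins to the cortex, was 0.81 higher with deletion in HCC and 0.71 higher in liver (unadjusted p = 0.0272 and 0.0474). With the arrays in doubt exchanged, Ostb stood at -0.77 (unadjusted p = 0.192), and Ezr at 0.56 in HCC and 0.46 in liver (unadjusted p = 0.167 and 0.251).

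Of 19 bile acid receptors and regulators, 13 were lower in HCC than in liver. Nr0b2, which encodes SHP, the FXR target that represses Slc10a1 and bile acid synthesis, was lower with deletion in liver, with 3.74, 1.92 and 2.43 against 4.33, 3.45 and 3.34 in wild-type liver. The difference was -1.01 (SE 0.29, unadjusted p = 0.00571, adjusted p = 0.416), and the first deleted array, 1 of the 2 in doubt, lay among the wild-type ones. With the arrays in doubt exchanged it was -1.16 (limma unadjusted p = 0.000467, adjusted p = 0.515). With both left out it was -1.18 (limma unadjusted p = 0.00347, adjusted p = 0.525). For HCC as labelled, the mean Nr0b2 level was 2.455 with deletion and 3.031 without. There 0 of the 19 regulators, Nr0b2 among them, were lower at an unadjusted p under 0.05. That p was reached in HCC only in the alternative fits. The Nr0b2 difference was -0.73 exchanged and -0.80 with both left out (limma unadjusted p = 0.00929 and 0.0224). Of 15 NRF2 and CAR target genes, 14 were lower in HCC than in liver, 8 of them at an unadjusted p under 0.05, with a median of -0.45. Of all genes 47.7% were lower, and 3.95% were lower at that p. This tissue difference was seen in wild-type mice, where 15 of 15 target genes were lower and 10 at an unadjusted p under 0.05. Of all genes 44.6% were lower there, and 2.43% were lower at that p. With deletion 8 of the 15 were lower and 0 at that p, where 55.8% of all genes were lower. The test of the difference between these tissue effects gave a positive sign in 15 of 15, where 56.4% of all genes had a negative one. It reached an unadjusted p under 0.05 in 5 of 15, all positive, where 0.845% of all genes did so. Exchanging the arrays in doubt cannot change these signs, since both arrays enter the difference alike and share a slide, so it is no check here. With both left out the counts were 15 and 3 of 15. Among the 5 was Gstm3 (2.09, SE 0.49, limma unadjusted p = 0.00169). Of 10 male-biased liver genes, 10 were lower with deletion in liver, by a median of -0.49, and 8 of 10 with the arrays in doubt exchanged (median -0.32) or both left out (median -0.18). Slco1a1 stood beside them at -1.39 as labelled and -0.68 exchanged, and 44.9% of all genes were lower in liver as labelled. With deletion in HCC 6 of the 10 male-biased genes were higher and 4 lower. Of 12 female-biased genes, 9 were higher with deletion in HCC, 3 at an unadjusted p under 0.05, where 3.44% of all genes were higher at that p. With the arrays in doubt exchanged 8 were higher, 2 of them at that p, and 1 gene was lower at that p. In HCC Slco1a4, also female-biased, differed by -1.17 as labelled. With deletion in liver 7 of the 12 female-biased genes were higher and 5 lower. All 14 acute-phase genes were measured, and 11 were higher in HCC than in liver as labelled, by a median of 0.08, but with the arrays in doubt exchanged 11 were lower, by a median of -0.14. All 8 measured T and NK cell markers were higher with deletion in HCC, by a median of 1.38. Of these, 5 reached an unadjusted p under 0.05, where 3.44% of all genes were higher at that p. With the arrays in doubt exchanged 8 of 8 were higher too, by a median of 0.90, and 0 reached that p. Their summed level was 5.03 to 10.2 times the 75th percentile in survivin-deleted HCC, against 1.80 to 6.29 in wild-type HCC, and their part in the transporter differences was not tested.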

How the data were processed

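Total RNA of 12 samples was labelled with Cy3 and hybridised singly to Agilent mouse arrays, per the labels' protocols. The deposited intensity values are processed signals that are background-subtracted per the file headers. The submitters' processing notes name Agilent Feature Extraction 10.7 as the authors' software for these intensities. The deposited log2 value table of the authors has no stated scaling and served only as an alternative.

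Control spots and flagged outlier spots were left out, spots of a probe were averaged, and log2 of the signal minus the array's 75th percentile over non-control probes was taken. Of 55681 probes 39136 passed the filter on dim probes, for 26506 genes by the probe of highest mean. Slc10a1 departs from that rule: its highest probe matches several genes, so the gene-specific one was used, chosen after its sequence was read. Group means were fitted with limma 3.58.1 in R 4.3.3, with slide as a block and Benjamini-Hochberg adjustment over all 26506 genes. Same-numbered arrays deviated together (18 of 18 pairs with r from 0.278 to 0.737), but within slide 2 only 2 of 6 pairs had r above 0.1, so the numbers follow the slide. On data simulated for deletion in HCC (26195 genes), the fit recovered 20% of 2-fold, 64% of 4-fold, 86% of 8-fold and 98% of 16-fold changes, with 9 false calls. The number of arrays limits precision. No spot was saturated. Named were the 10 transporters, Birc5, up to 4 genes of smallest unadjusted p from each list, and the 3 genes most correlated with each transporter after slide means were subtracted. The comparison of deletion over both tissues, the shared Slc10a1 probe as an alternative, separation within slides, and the fits of gene lists with the arrays in doubt exchanged or left out were added after values were seen. The transporters and gene lists were chosen with earlier results of these data known. Figures were drawn with matplotlib 3.10.9.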

Additional observations from a re-analysis of the deposited data

How the results depend on the processing

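Across 25 alternative settings, 826 of 863 alternative values of 35 transporter differences kept their direction, 37 reversed, and 0 passed the adjusted threshold of limma. Many of the 826 repeat the main value, because some settings do not move a given difference. With deletion in HCC the median of the members stayed at -0.0755 under either filter, without a slide block, and without any 1 liver array. The sign of HCC against liver was lower in 10 of 10 transporters under each alternative run. The replicate block left every transporter difference at the same value and called none (for Slco1a4 with deletion in HCC, -1.17 with adjusted p = 0.607). Reversed with deletion in liver were Slco1b2 (0.069 with quantile normalization, 0.12 on slide 2 only, 0.010 without both arrays in doubt), Abcb11 (0.10 with quantile normalization, 0.17 on slide 2 only, 0.030 in the deposited value table, 0.038 with the 2 arrays exchanged, 0.057 without both), Slco2b1 (0.31 on slide 2 only, 0.016 in the value table, 0.024 with the arrays exchanged, 0.35 without both), Abcc3 (0.040 without both) and Abcc4 (0.012 with normexp). Reversed with deletion in HCC were Abcc2 (0.15 with normexp, 0.092 on slide 2 only, 0.014 without both), Abcb4 (0.10 on slide 2 only), Slco2b1 (-0.0058 as the mean of all probes) and Slco1a1 (0.48 in the value table and with the arrays exchanged, 0.41 without both). The median of uptake minus export genes with deletion in HCC was 0.42 in the value table and with the arrays exchanged and 0.40 without both, and over both tissues 0.16 in the value table and with the arrays exchanged. The cause of these reversals was not tested.

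No gene was called by limma in any comparison as labelled. Over both tissues 2 genes were called with normexp, 435 on slide 2 only, 1 in the value table, 1 with the arrays exchanged and 2 without both. With deletion in HCC 1 was called on slide 2 only and 2 without both, and in liver 1 on slide 2 only. Leaving out 1 array at a time gave 0 to 2 called genes for HCC against liver in both genotypes, 0 in wild type and 0 to 1 with deletion, 0 to 2 for deletion in HCC and in liver, 0 for the interaction and 0 to 1 over both tissues. By the same omissions the uptake minus export median ranged over -0.34 to -0.04 for HCC against liver, -0.35 to 0.04 in wild type, -0.64 to 0.11 with deletion, -0.97 to 0.52 for deletion in HCC, -0.49 to -0.06 in liver, -0.43 to 0.38 for the interaction and -0.68 to -0.07 over both tissues. With deletion in HCC Slco1a1 ranged over -0.98 to 0.88, Slco2b1 -0.35 to 0.72, Abcb4 -0.26 to 0.15 and Abcc2 -0.24 to 0.12. In liver Slco1b2 ranged over -0.27 to 0.052, Slco2b1 -0.73 to 0.43, Abcb11 -0.21 to 0.10, Abcc3 -0.34 to 0.10 and Abcc4 -0.74 to 0.46.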
